A study of Mus musculus with 6 samples.

Results

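Interleukins and colony-stimulating factors are secreted signals between blood cells, and each acts through a receptor built from a private chain, which recognises the ligand, and often a chain shared with other cytokines. Most of these receptors signal through JAK kinases and STAT factors, whereas the IL-1 and IL-18 receptors signal through MYD88 and IRAK kinases. In lymphoid and myeloid tissue they control survival, growth and inflammation, and many ligands are made by a small number of cells while the receptors are spread more widely. The genes of this family were taken from the authors' table of all genes by symbol: every entry named Il followed by a digit, plus Csf1, Csf2, Csf3, Csf2ra, Csf2rb, Csf2rb2 and Csf3r, with Il7r and Il8rb left out. That gave 92 of 29209 entries, made up of 42 ligands, 47 receptors, the antagonists Il1rn and Il18bp, and Il4i1, an amino acid oxidase that is no cytokine despite its symbol. Roles were set by symbol and all remaining members were counted as ligands, among them Il1f5, the IL-36 receptor antagonist. Il10r2 is a synonym of Il10rb in the RefSeq gene table, so these 2 entries name the same gene.

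The samples were subcutaneous tumours grown in NCr nude mice, which lack a thymus and most mature T cells but keep other host blood cells. They arose from injected splenic cells of diseased mir-155LSLtTA mice, so that the tumours of both groups overexpressed the microRNA miR-155 at first. The DOX group consisted of 3 samples from mice given doxycycline chow (2.3 mg/kg) over the last 16 hours, labelled as tumours with miR-155 withdrawal. The no DOX group consisted of 3 samples from mice without it, labelled as tumours with miR-155 overexpression. The comparison asks which transcripts differ once the microRNA is turned off. No DOX-fed mouse with tumours free of the transgene is among the samples, so DOX itself and the loss of miR-155 cannot be told apart. The promoter driving the transgene and any pooling of animals are not given in the sources used here.

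The deposited values are the authors' comparison of both groups, a linear fold and a p-value for each entry. They hold no level per sample and no standard error, so no value of a single tumour can be shown, and depth is unknown. The table does not name the numerator of its fold. It was read as DOX over no DOX, so a log2 fold above 0 means higher in DOX tumours. With the opposite numerator all directions given here would be reversed. An entry was called when the authors' adjusted p was under 0.05. To give each fold an approximate error, an implied spread was computed as the absolute log2 fold divided by the normal quantile of its unadjusted p. It stands in for a standard error and does not come from replicates. Whether the 3 samples of a group are different animals is not in the labels, so the p-values cover sample-to-sample spread that could be technical.

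Ligands and receptors first differed in whether they could be measured. Of the 42 ligand entries, 26 (61.9%) stood in the table with neither fold nor p, against 9 of 47 receptor entries (19.1%) and 10666 of 29209 entries overall (36.5%). The unmeasured ligands include the T helper cytokines Il2, Il4, Il5, Il9, Il13, Il17a and Il22, as well as Il3 and Csf2, growth factors of myeloid progenitors. The others are Il12b, Il17b, Il17d, Il17f, Il19, Il20, Il23a, Il24, Il25, Il27, Il28, Il31 and 5 members of the IL-1 family. The receptors without a value are Il23r, Il13ra2, Il22ra1, Il17re, Il20ra, Il31ra, Il1rapl1, Il1rapl2 and the chemokine receptor Il8ra. A further 5 ligands have a fold listed as Inf, meaning a group mean of 0 in the denominator, namely Il6, Il7, Il10, Il21 and Il1f9 (IL-36 gamma). Their unadjusted p in the authors' deposited table ranged from 0.219 for Il1f9 to 0.977 for Il21, so none was near the threshold. The receptor entry Il11ra2 was also listed as Inf, and Il22ra2, a soluble decoy receptor for IL-22, was listed as 0. This left 16 tested ligands, 11 of them with a finite fold, and 38 tested receptors, 36 of them with a finite fold.

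**Figure D1:**
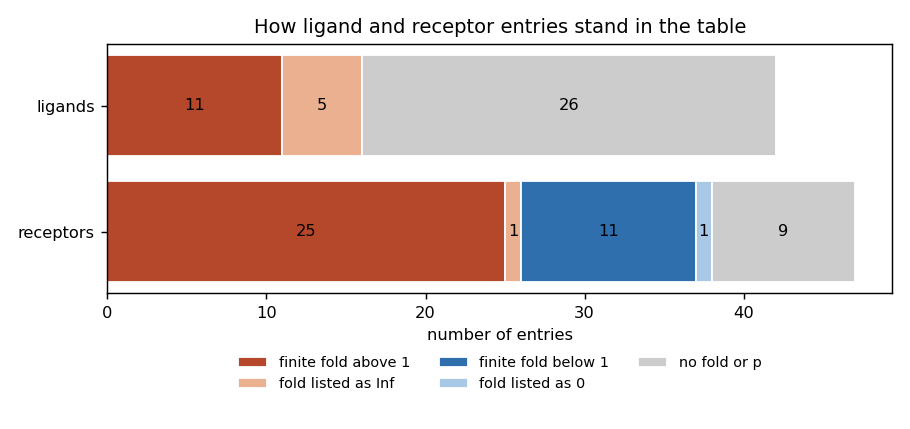
Number of ligand entries (upper bar) and receptor entries (lower bar) by what the authors' table gives for them. All 16 tested ligands have a fold above 1 or listed as Inf, while 12 of 38 tested receptors have a fold below 1 or listed as 0.

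In DOX tumours 5 of the 57 tested members rose and 0 fell by the authors' adjusted p, while at an unadjusted p under 0.05 there were 10 higher and 2 lower. Rises made up 8.77% of the tested members, against 5.72% of all 18543 tested entries, and falls 0%, against 5.61%. In both directions together, 11.3% of all tested entries were called. At an unadjusted p under 0.05, 17.5% of members were higher and 3.51% lower, against 11.9% and 10.4% of all tested entries (22.4% in either direction). At an adjusted p under 0.01, 3 members were higher and 0 lower, against 3.11% higher and 3.07% lower of all tested entries (6.17% together). At an adjusted p under 0.1, 7 were higher and 1 lower, against 7.74% higher and 7.35% lower (15.1% together). The 5 members that rose are the ligands Il16 and Il12a and the receptors Il15ra, Il6ra and Csf3r. They belong to 5 different cytokines, and none is a ligand together with its own receptor. With so few ligands and receptors called, few such pairs could have shown.

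Il16 had the smallest adjusted p of the family. It encodes a precursor that is cut to release a chemoattractant acting through CD4, and it is outside the structural families of the other interleukins. Its log2 fold was 1.19 with an implied spread of 0.32 (adjusted p = 0.00436) in the authors' deposited table, the smallest fold of the 5 that rose and the tightest. Il12a encodes the p35 chain, which pairs with the product of Il12b to form IL-12. It rose by a log2 fold of 3.20 with an implied spread of 1.00 (adjusted p = 0.0175) in the authors' deposited table. Its partner Il12b has neither fold nor p, so the level of complete IL-12 cannot be read from these data.

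Csf3r encodes the receptor of granulocyte colony-stimulating factor, found on neutrophils and their progenitors. It had the largest fold of the 5, a log2 fold of 4.34 with an implied spread of 1.40 (adjusted p = 0.0240) in the authors' deposited table. Among the 5 neutrophil markers with an entry, Il8rb and Mmp9 rose (40%, against 5.72% of all tested entries). S100a8 and S100a9 had log2 folds of 5.96 and 5.47 without passing (adjusted p = 0.0874 and 0.0653) in the authors' deposited table. The granule gene Mpo was listed at 0 and was not called. The median log2 fold of the 4 neutrophil markers with a finite fold was 3.90. In bulk tumours, more cells of a type and more RNA per cell cannot be told apart, and the part of neutrophils in the rise of Csf3r was not tested. Csf3, the ligand, had a log2 fold of 1.72 with an implied spread of 8.38 (adjusted p = 1) in the authors' deposited table, so no difference was detectable.

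Il15ra and Il6ra are the called receptors with matches to the miR-155 seed. Il15ra encodes the chain that binds IL-15 and presents it to neighbouring cells. It rose by a log2 fold of 2.63 with an implied spread of 0.72 (adjusted p = 0.00574) in the authors' deposited table. Il6ra encodes the private chain of the IL-6 receptor, and it rose by 2.39 with an implied spread of 0.66 (adjusted p = 0.00588) in the authors' deposited table. A microRNA pairs through its seed, bases 2 to 8, with sites in the 3′ UTR of its target and lowers the target's RNA. The mature microRNA from RefSeq (GRCm38.p6, chr16:84714143-84714165, plus strand) is shown with its seed in capitals, followed by the matches in both receptors' longest annotated 3′ UTR (GENCODE M21), where capitals mark the match to the seed and, in the 8-base form, the A that follows it.
mmu-miR-155-5p: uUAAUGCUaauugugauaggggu
Il15ra, chromosome 2, UTR base 719: cagtacaaaaAGCATTAAaattatcaac
Il15ra, chromosome 2, UTR base 927: gagcccagctAGCATTAgacacatacc
Il6ra, chromosome 3, UTR base 1615: cactgacctaAGCATTAgttattttat
Il6ra, chromosome 3, UTR base 4070: tgcattgttcAGCATTAccagatagag
The first Il15ra match is of the 8-base form. These matches are a description of the letters and do not show binding.

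Across the family the seed match was no more common than elsewhere. Of 56 tested member entries with an annotated 3′ UTR, 7 (12.5%) held AGCATTA or GCATTAA, against 1915 of 14222 tested genes (13.5%). By role, 1 of 16 ligands and 6 of 37 receptors held one. The 6 receptors, Il15ra, Il6ra, Il17ra, Il17rd, Il18r1 and Il1rl2, had a median log2 fold of 1.91. The 30 receptors without a match and with a finite fold had one of 0.37. Il18r1 and Il1rl2 did not pass, at log2 folds of 1.42 and 3.38 with implied spreads of 1.61 and 3.12 (adjusted p = 0.758 and 0.646) in the authors' deposited table. No median fold was computed for all tested genes with a match. The longest 3′ UTRs of the 6 receptors were also longer, with a median of 3620 against 1693 bases, as were their transcripts (5955 against 3481). Across all tested genes, 63.9% of transcripts of at least 3101 bases had a fold above 1, against 45.8% of shorter ones. The part of length was not tested. Il17ra, the shared signalling chain of the IL-17 receptors, and Il17rd, a relative of it, each held a match and did not pass, at log2 folds of 0.59 (adjusted p = 0.330) and -0.02 (adjusted p = 1) in the authors' deposited table. Their sites read as follows, with capitals as above, and show that a match also stood in receptors that were not called.
Il17ra, chromosome 6, UTR base 1300: cgtcttgcctAGCATTAgcaagccctg
Il17rd, chromosome 14, UTR base 1271: agattggaccAGCATTAAgggggttgct

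Among finite folds, ligands had a higher median than receptors. All 11 finite ligands had a fold above 1 (100%), against 25 of 36 finite receptors (69.4%) and 55.9% of all finite tested entries. The 5 ligands listed as Inf can only stand on the high side and are not counted there. With Inf and 0 included, 59.4% of all tested entries lay above 1 and 40.6% below. The 11 finite ligands had a median log2 fold of 1.96, from 1.19 to 5.90. The 36 finite receptors had a median of 0.62, from -2.28 to 4.67, and all tested entries with a finite fold had one of 0.17. Folds of at least 2 were found in 11 of 11 finite ligands, all higher, and in 13 higher and 4 lower of 36 finite receptors. By calls the roles were closer, with 2 of 16 ligands (12.5%) and 3 of 38 receptors (7.89%) past the threshold. Of all tested entries, 11.3% were called in either direction and 5.72% were called higher. The difference between roles was not tested.

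**Figure D2:**
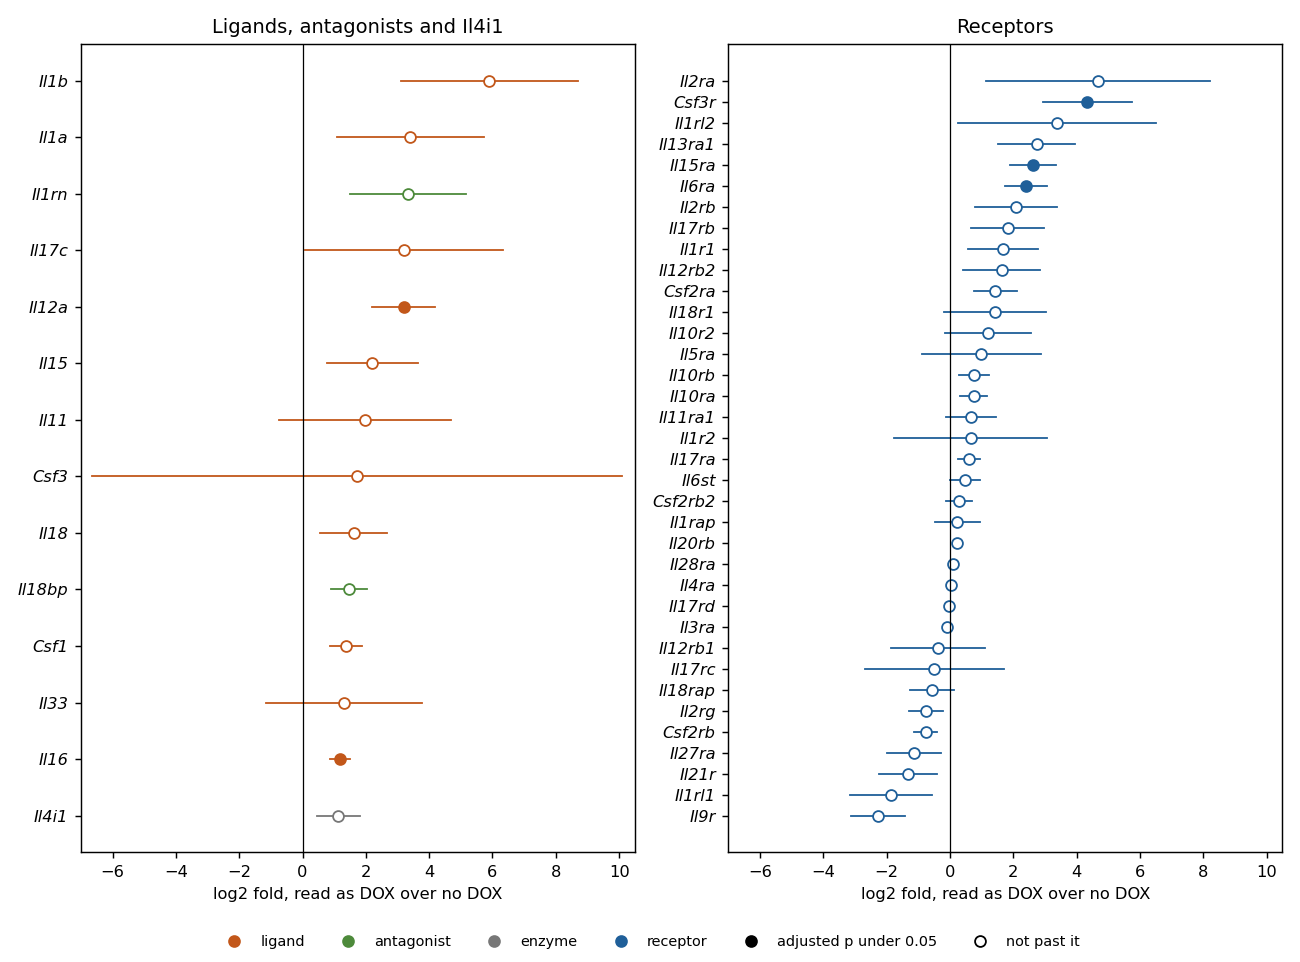
Log2 fold of every member with a finite fold, ligands, antagonists and Il4i1 on the left and receptors on the right. Horizontal lines span the fold plus and minus its implied spread (drawn where the unadjusted p was at most 0.9), and filled points passed an adjusted p of 0.05. No ligand lies below 0, whereas 11 receptors do, and the longest lines belong to ligands such as Csf3 (8.38) and to Il2ra (3.55).

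The higher folds of ligands came with wider errors. Their median implied spread was 2.32 over 11 ligands, against 0.91 over 31 receptors and 0.61 over 13930 tested entries. In the table as a whole, entries with wide errors leaned upward. Of the 1784 tested entries with an implied spread of 2 or more, 78.1% had a fold above 1 and the median log2 fold was 1.53. Of the 5289 entries with a spread under 0.5, 42.5% had a fold above 1 and the median was -0.21. Likewise 2180 entries were listed as Inf and 579 as 0. With an implied spread of 2 or more stood 6 of the 11 ligands and 4 of the 31 receptors. From 1 to 2 stood 2 ligands and 11 receptors, and 9 of these receptors had a fold above 1. Of the 2398 tested entries in that range, 76.2% had a fold above 1 and the median log2 fold was 1.29. Since the spread is computed from the fold, large folds reach wide spreads more easily. The part of low counts in the ligands' lean was not tested. Transcript length also differed between roles. The tested ligands had a median transcript length of 1928 bases, against 3575 for receptors, and across all tested genes 45.8% of transcripts shorter than 3101 bases had a fold above 1, against 63.9% of the others.

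**Figure D3:**
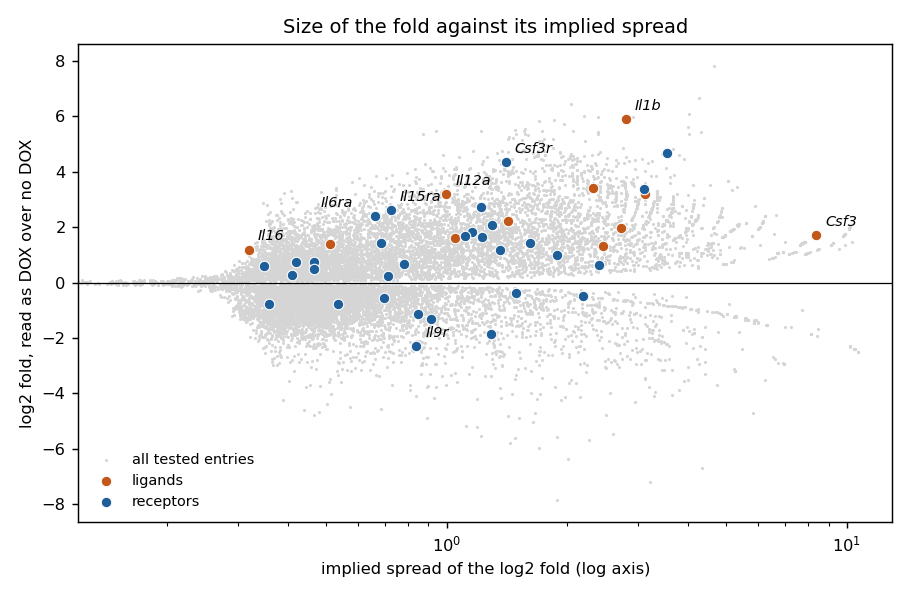
Log2 fold (vertical axis) against its implied spread (horizontal log axis) for all tested entries in grey, ligands in orange and receptors in blue. Grey points at the right lie mostly above 0, and 6 of 11 ligands but 4 of 31 receptors stand at a spread of 2 or more.

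Among the IL-1 cytokines, which drive fever and acute inflammation, none passed, although Il1b had the largest finite fold of all members. Its log2 fold was 5.90 with an implied spread of 2.80 (adjusted p = 0.178) in the authors' deposited table. Il1a stood at 3.40 and the antagonist Il1rn, which blocks the same receptor, at 3.34 (adjusted p = 0.439 and 0.272) in the authors' deposited table. The signalling receptor Il1r1 stood at 1.67 and its partner chain Il1rap at 0.23 (adjusted p = 0.419 and 1) in the authors' deposited table. For IL-18, the ligand Il18 had a log2 fold of 1.61 and the secreted inhibitor Il18bp of 1.46 (adjusted p = 0.399 and 0.0767) in the authors' deposited table. Its receptor chains stood on both sides of 0, Il18r1 at 1.42 and Il18rap at -0.56 in the authors' deposited table. For IL-33, an alarm signal of damaged tissue, the ligand stood at 1.32 and its receptor Il1rl1 at -1.86 (adjusted p = 0.937 and 0.449) in the authors' deposited table. The receptor Il1rl2, which binds IL-36 cytokines, stood at 3.38 with an implied spread of 3.12 (adjusted p = 0.646), and the decoy Il1r2 at 0.65 (adjusted p = 1), in the authors' deposited table. Counting every role, 12 of 14 tested entries of this family had a fold above 1 (85.7%), against 59.4% of all tested entries. The family's median implied spread was 1.61. Of all tested entries with a spread from 1 to 2, 76.2% had a fold above 1. Of the 14 entries 0 were called, against 11.3% of all tested entries in either direction. Il1b and Il18bp were higher at an unadjusted p under 0.05 (14.3%, against 11.9% of all tested entries).

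Markers of other cell types are given beside these genes, against the 11.3% of all tested entries that were called in either direction. Of 10 macrophage markers in the table, all had a fold above 1 and 2 rose (Csf1r and Mertk), with a median log2 fold of 2.02 and a range from 0.41 to 4.75 in the authors' deposited table. Of 6 fibroblast markers, all were above 1 and 2 rose (Postn and Pdgfra), with a median of 2.33. Of 8 B lineage markers, 5 were above 1 and 2 rose (Ebf1 and Blnk), with a median of 0.49, while Ms4a1 stood at -4.12 (adjusted p = 0.183) in the authors' deposited table. Among 5 tested T cell markers, 3 were above 1 (median 0.82), and of 5 NK cell markers, 4 were above 1 or listed as Inf, with 0 called in both lists. Of the mast cell and basophil markers, Tpsb2 was listed as Inf, Cpa3 at 0, and 3 had no value. The part of these cells in the cytokine genes was not tested. Csf1, the growth factor of macrophages, was near the threshold, at a log2 fold of 1.38 with an implied spread of 0.51 (adjusted p = 0.0569) in the authors' deposited table. Its receptor Csf1r, which the choice of symbols leaves out of the members, rose by 2.16 with an implied spread of 0.41 (adjusted p = 1.45e-05) in the authors' deposited table.

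Receptor chains of the lymphoid growth cytokines had folds on both sides of 0. Among the members only Il15ra passed (log2 fold 2.63, adjusted p = 0.00574 in the authors' deposited table), so no difference in direction between chains was established. Il2ra and Il2rb, chains of the IL-2 receptor, had log2 folds of 4.67 and 2.08 with implied spreads of 3.55 and 1.30 (adjusted p = 0.512 and 0.370) in the authors' deposited table. Il2rg, the chain that IL-2, IL-4, IL-7, IL-9, IL-15 and IL-21 share, stood at -0.77 (adjusted p = 0.454) in the authors' deposited table. Il9r, which binds a growth factor of T cells and mast cells, had the lowest finite fold of any member, -2.28 with an implied spread of 0.84. Its adjusted p was 0.0561 in the authors' deposited table, just outside the threshold. Il21r, of the IL-21 receptor, and Il27ra, of the IL-27 receptor, stood at -1.32 and -1.14 (adjusted p = 0.450 and 0.499) in the authors' deposited table. Il4ra, of the IL-4 receptor, stood at 0.03, whereas Il13ra1, which binds IL-13 together with it, stood at 2.74 (adjusted p = 1 and 0.139) in the authors' deposited table. IL-15 was the 1 cytokine of this group with a finite fold for its ligand, and Il15 stood at 2.21 (adjusted p = 0.396) in the authors' deposited table.

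A set of 6 receptor chains, made up of shared chains and Csf2rb2, had a median near that of all finite tested entries (0.17). The difference of this set from the other receptors was not tested. Il2rg, Csf2rb, Csf2rb2, Il6st, Il10rb and Il1rap had a median log2 fold of 0.26, from -0.77 to 0.76, with a median implied spread of 0.47. For the 30 other receptors with a finite fold the median was 0.70 and the median spread 1.22. Those 30 include, among others, Il2rb, which IL-2 and IL-15 share, Il4ra, which IL-4 and IL-13 share, Il17ra, and the second Il10rb entry. They are therefore not all private chains. Of the set of 6 chains 0 were called, against 11.3% of all tested entries in either direction. Csf2rb alone had an unadjusted p under 0.05 (16.7% lower, against 10.4% of all tested entries). Csf2rb, the common beta chain of the GM-CSF, IL-3 and IL-5 receptors, had a log2 fold of -0.77 with an implied spread of 0.36 (unadjusted p = 0.0316, adjusted p = 0.166) in the authors' deposited table. Csf2rb2, its neighbour, which serves IL-3 alone in mice, stood at 0.28 (adjusted p = 0.866) in the authors' deposited table. In the Csf2rb transcript, 18.4% of 50-base windows occur unchanged in that of Csf2rb2, so the division of reads between both genes is uncertain. The private chain Csf2ra stood at 1.44 (unadjusted p = 0.0365, adjusted p = 0.182) and Il3ra at -0.09 (adjusted p = 1) in the authors' deposited table. Il6st, the gp130 chain of the IL-6 family, stood at 0.47 (adjusted p = 0.686) in the authors' deposited table, beside the rise of Il6ra. Il10ra and Il10rb, both chains of the IL-10 receptor, stood at 0.75 and 0.76 (adjusted p = 0.291 and 0.356) in the authors' deposited table. The second entry of Il10rb, under its older name Il10r2, stood at 1.19 with an implied spread of 1.36 (adjusted p = 0.760) in the authors' deposited table, so the same gene had 2 differing values there.

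Setting ligands beside their receptors gave 20 cytokine systems. They were drawn from the members alone, so CSF1, whose receptor Csf1r is no member, is not among them. They are also a chosen set. IL-22, IL-23 and IL-25, among others, were left out although their ligands and receptor chains are members. The counts of systems depend on that choice. In 12 of them both a ligand and a receptor chain were tested, and in 8 the receptor chains were tested without any ligand value. Those 8 are the systems of IL-2, IL-3, IL-4 with IL-13, IL-5, IL-9, IL-17, IL-27 and GM-CSF. No system had both a called ligand and a called receptor. Il12a was the only called ligand in them, since Il16 is in none of the systems, so only IL-12 could have shown such a pair. Of all tested entries 11.3% were called in either direction. For IL-12, Il12a rose while Il12rb2 and Il12rb1 stood at 1.64 and -0.38 (adjusted p = 0.501 and 1) in the authors' deposited table. For IL-17C, a ligand of epithelial cells, Il17c stood at 3.21 with an implied spread of 3.13 (adjusted p = 0.678) in the authors' deposited table, and its private receptor Il17re has no value. Il11, a cytokine of stromal cells, stood at 1.96 and its receptor Il11ra1 at 0.66 (adjusted p = 0.842 and 0.777) in the authors' deposited table. Il11ra1 shares 37.8% of its 50-base windows with the copy Il11ra2, so its reads too may be divided. The receptors not named so far, Il5ra, Il17rb, Il17rc, Il20rb and Il28ra, had log2 folds from -0.49 to 1.83 and none passed. Il4i1 stood at 1.13 (adjusted p = 0.334) in the authors' deposited table.

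**Figure D4:**
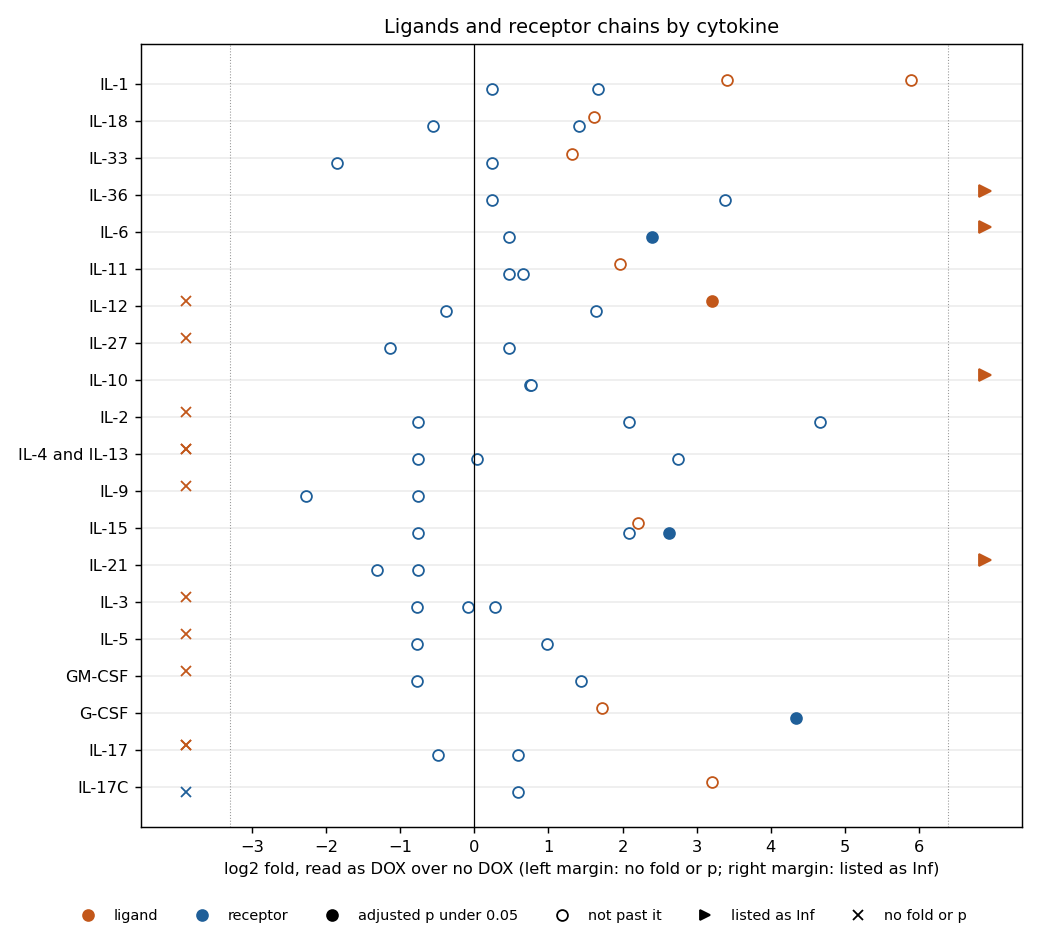
Log2 fold of ligands (orange) and receptor chains (blue) for 20 cytokine systems, one per row. A shared chain is drawn in each system it serves, crosses at the left mark entries with neither fold nor p, triangles at the right mark folds listed as Inf, and filled points passed an adjusted p of 0.05. Filled points stand for Il6ra, Il12a, Il15ra and Csf3r, each in a different system.

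Downstream of the receptors, 25 JAK, STAT, SOCS, MYD88 and IRAK pathway genes were tested. Of these 0 rose and 2 fell (8%), against 11.3% of all tested entries called in either direction, and their median log2 fold was 0.05. At an unadjusted p under 0.05, 2 were higher (8%) and 5 lower (20%), against 11.9% and 10.4% of all tested entries. Cish, a feedback inhibitor that STAT5 induces after IL-2, IL-3 and related cytokines, fell by 4.03 on the log2 scale with an implied spread of 0.51 (adjusted p = 5.68e-12) in the authors' deposited table. Ptpn6, the SHP-1 phosphatase that dampens cytokine receptors, fell by 2.35 with an implied spread of 0.47 (adjusted p = 4.4e-05) in the authors' deposited table. The feedback inhibitors Socs3 and Socs2 stood at -1.29 and -0.91 (adjusted p = 0.151 and 0.177), and Socs1 at 0.51 (adjusted p = 0.861) in the authors' deposited table. Jak2, the kinase bound to the common beta chain, stood at 1.57 (adjusted p = 0.0673) in the authors' deposited table. No MYD88 or IRAK gene passed. Irak1 stood at -1.12, Irak2 at 1.74 and Myd88 at -0.36 (adjusted p = 0.0823, 0.239 and 0.724) in the authors' deposited table.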

How the data were processed

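RNA was sequenced from 6 tumour samples, 3 with DOX and 3 without. Tumours were made into cell suspensions without red cells, and total RNA was depleted of ribosomal RNA with a Ribozero kit, per the labels' protocols. RSEM, DESeq and the build mm9 were used, per the submitters' processing notes, with versions, parameters and filters not given in the sources used here. Per the file headers, the deposited values are a fold change, here a linear ratio, and the authors' p-value before and after adjustment. The table's adjusted p equals a Benjamini-Hochberg adjustment over its 18543 tested entries to within 2.09e-06. Log2 folds were computed from the deposited ratio, and folds listed as 0 or Inf were left out of medians.

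The members and lists were chosen with earlier results of these data known. Named are members past the threshold or with an unadjusted p under 0.05, and the 4 highest and 4 lowest finite folds in each role. Also named are the set of shared chains with Csf2rb2, and called signalling genes. Others, such as chains of the systems described, were named after their values were seen. Of 92 entries, 91 matched a RefSeq symbol (GRCm38.p6). Implied spreads used p up to 0.9. The adjustment and the formula of the implied spread were checked on simulated data with normal errors. That checks the arithmetic and cannot show how well the spread holds for these counts. Python 3.11.15, pandas 2.3.3 and scipy 1.17.1 were used. No test across samples could be run, since no value per sample is in the table used here.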

Additional observations from a re-analysis of the deposited data

How the results depend on the processing

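The count of 5 called members became 3 at an adjusted p under 0.01, 8 under 0.1 (7 higher, 1 lower) and 0 under Bonferroni, where 291 of all entries remained. It was 7 of 50 with finite folds only (adding Il9r and Csf1), where 14% of all entries were called, and 5 of 57 with protein-coding matches only, where 12.1% were. With Inf and 0 kept, the median log2 fold of ligands was 3.21, 2.59 above that of receptors. Less the median of all tested entries, the medians were 1.79 for ligands and 0.45 for receptors. Receptors had a median of 0.59, and ligands exceeded them by 1.38, with 1 entry per current symbol. Both values were the same without Il1r2, Il13ra2, Il22ra2, Il1rapl1 and Il1rapl2, of which Il1r2 alone had a finite fold. The accessory chains Il1rap and Il18rap were kept in both settings. The remaining settings were chosen after seeing the data. With a computed implied spread under 2, the medians were 1.61 for ligands and 0.75 for receptors, and the difference 0.87, while with the 5 receptors of no computed spread kept the receptor median was 0.53 and the difference 1.08. Both remove large folds by construction, since the spread contains the fold. Without Csf2rb, Csf2rb2, Il11ra1 and Il11ra2 the receptor median was 0.65 and the difference 1.32, and with Il10r2 left out as well both equalled the values of the report. No direction turned under any of these. The ligand median could not have turned, since the lowest finite log2 fold of a ligand was 1.19. Leaving out replicates was not run, since no value per sample is in the table. No paired analysis was possible because the table holds no value per sample. Depth is unknown, so whether unmeasured ligands were absent or too low to count cannot be said.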
